A study of Rattus norvegicus with 6 samples.

Results

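The 10 genes described here encode the NOTCH receptors Notch1, Notch2, Notch3 and Notch4, the ligands Jag1, Jag2 and Dll4, and the transcriptional targets Hes1, Hey1 and Heyl. They were chosen by symbol, and all 10 had a row among the 14607 genes of the table. Messenger RNA was sequenced from 3 samples of vascular smooth muscle cells (VSMCs) and 3 samples of mid-capillary pericytes (mcPCs). All 6 samples came from the brain cortex of male Sprague-Dawley rats of 4 to 5 weeks, without any treatment named in the labels, and each isolation pooled several animals. VSMCs were dissociated from arterioles held back by a filter, depleted of CD31 and CD11b positive cells and captured with a lectin. All tissue was first digested with Liberase DL, and only the arterioles were digested again, with Liberase TM and then trypsin with EDTA. Handling thus differed along with cell type, and their effects cannot be told apart. mcPCs were the cells of the filtrate left over after endothelial cells, microglia, astrocytes and oligodendrocytes had been withdrawn with antibodies. Either population may hold some pericytes of the vessels between arteriole and capillary, or of venules.

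NOTCH receptors are transmembrane proteins activated by ligands of the Jagged and Delta-like families on a neighbouring cell. Ligand binding lets ADAM proteases and then gamma-secretase cut the receptor, and the freed intracellular domain joins RBPJ and a Mastermind protein on DNA. The classical targets are repressors of the HES and HEY families. In the vessel wall NOTCH3 is the receptor characteristic of mural cells, JAG1 on endothelium and smooth muscle is one of its ligands, and DLL4 and NOTCH4 are known mainly from endothelial cells. Mutations of human NOTCH3 cause the small vessel disease CADASIL, in which arterial smooth muscle is lost.

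The table held 1 mean per gene and cell type and no value per sample. Differences are therefore given without a test, without a replicate check and without a spread between samples. Abundance is the authors' mean in TPM, the share of all transcripts after correction for transcript length, and was used to compare genes. Cell types were compared by the log2 ratio of the authors' mean normalized counts, mcPCs over VSMCs, with a pseudocount of 1. Its 95% interval (exact, from the reads behind both means) covers counting error only. Summed over genes, the estimated reads of a VSMC sample came to 62.0 M and those of an mcPC sample to 48.0 M on average. Markers were read beside the labels first. All 12 smooth muscle markers were at least 2-fold lower in mcPCs, against 13.8% of all genes, with log2 ratios between -8.82 and -2.48. Of 10 mural and pericyte markers, 7 were at least 2-fold higher in mcPCs, against 21.6% of all genes, and 1 lower. Their median was 3.11. The study reports several of these markers, such as Myh11, Acta2 and Kcnj8, from the same samples, so they are no independent check of the labels. The mural markers Rgs5 and Cspg4 differed by -0.06 and -0.19. All 17 erythrocyte genes with a row, of 31 listed, were at least 2-fold higher in mcPCs, against 21.6% of all genes. The median log2 ratio of these 17 was 8.05. They held 54.9% of the summed TPM in mcPCs and 0.73% in VSMCs, which lowers the TPM of other genes in mcPCs. The sequenced cells were sorted in bulk, so fewer cells of a type and less RNA per cell cannot be told apart.

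RBPJ binds DNA at the core motif TGGGAA, and HES and HEY repressors bind sites such as CACGCG. The 250 bases before the annotated start were taken from RefSeq (GRCr8, whereas the expression data rest on the Rnor_6.0 transcript set), which had entries for 8 of the 10 genes, Jag2 with 2 windows, and none for Dll4 and Hey1. Both strands were searched. Among 33469 windows of this length in the table, 22.1% held TGGGAA at least once and 2.71% held 2 or more copies. Of the 8 genes, Hes1 and Notch4 held it, 2 copies each. CACGCG stood in 7.14% of the windows in the table. It stood in a window of 5 of the 8 genes, namely Notch2, Jag1, Jag2, Hes1 and Heyl, without overlapping TGGGAA. For Jag2 this was 1 of its 2 windows. Of the 2 further targets looked up, Hey2 held 2 copies of TGGGAA and Nrarp none. Shown are Hes1 (chr11:84213046-84213295, minus strand) and Hey2 (chr1:28640850-28641099, plus strand), targets with lower levels in mcPCs. Heyl (chr5:140793021-140793270, plus strand) is shown as a target within 2-fold on normalized counts. Notch4 (chr20:4189073-4189322, minus strand) is shown as the receptor at least 2-fold higher in mcPCs. Capitals mark TGGGAA or its reverse complement, and each sequence is written 5′ to 3′ in the direction of the gene.
Hes1: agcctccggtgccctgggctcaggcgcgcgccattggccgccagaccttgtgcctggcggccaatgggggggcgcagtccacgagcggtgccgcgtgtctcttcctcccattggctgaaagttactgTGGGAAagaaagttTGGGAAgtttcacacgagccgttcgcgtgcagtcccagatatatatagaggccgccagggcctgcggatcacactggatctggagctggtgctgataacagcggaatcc
Hey2: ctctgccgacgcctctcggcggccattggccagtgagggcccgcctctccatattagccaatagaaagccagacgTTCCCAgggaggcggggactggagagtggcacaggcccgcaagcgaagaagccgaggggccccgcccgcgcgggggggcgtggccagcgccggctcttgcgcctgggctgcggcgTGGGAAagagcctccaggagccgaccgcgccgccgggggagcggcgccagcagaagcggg
Heyl: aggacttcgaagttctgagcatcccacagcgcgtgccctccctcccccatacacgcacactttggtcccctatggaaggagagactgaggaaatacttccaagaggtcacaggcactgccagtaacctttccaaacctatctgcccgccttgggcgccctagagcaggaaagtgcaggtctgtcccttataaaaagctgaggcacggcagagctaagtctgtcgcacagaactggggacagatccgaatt
Notch4: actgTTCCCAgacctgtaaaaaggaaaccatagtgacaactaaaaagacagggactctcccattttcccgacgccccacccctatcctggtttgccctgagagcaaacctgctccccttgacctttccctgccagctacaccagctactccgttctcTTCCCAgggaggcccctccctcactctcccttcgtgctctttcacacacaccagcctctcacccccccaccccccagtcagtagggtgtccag

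The 2 copies of Hes1 began 123 and 109 bases before the start and lay on the same strand. In Hey2 they began 175 and 60 bases before it, on opposite strands, and in Notch4 246 and 93 bases before it, both on the strand opposite to the gene. The windows of Heyl and Notch3 held no TGGGAA. Copies were thus seen both in genes with lower and in a gene with higher levels in mcPCs.

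In both cell types the most abundant gene of the 10 was Notch3 and the next was Heyl. The order in VSMCs then ran Hes1, Notch1, Jag1, Notch2, Hey1, Notch4, Jag2 and Dll4, and in mcPCs Notch1, Notch4, Hes1, Jag1, Notch2, Hey1, Dll4 and Jag2. Which neighbours in these orders differ beyond the spread between samples cannot be given from means. Notch4 moved from place 8 to place 4, and Hes1 from place 3 to place 5. Summed over the 10 genes, abundance was 1900 TPM in VSMCs against 261 TPM in mcPCs. The spread across genes was wide, since Notch3 lay above 99.2% of the listed genes in VSMCs and Dll4 above 8.95%.

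**Figure D1:**
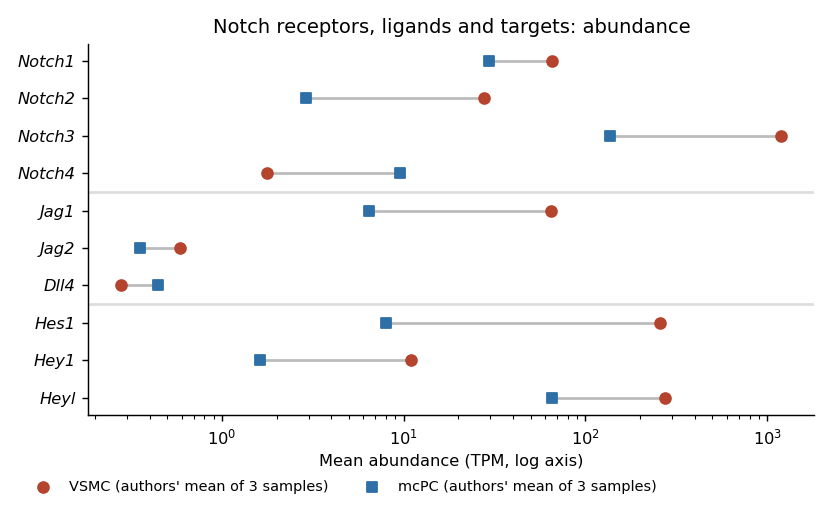
Mean abundance (TPM, log axis) of each gene in VSMCs (circles) and mcPCs (squares), each the authors' mean of 3 samples, without a spread. Notch3 is the highest in both cell types, with 1198 and 137 TPM, and Notch4 and Dll4 are the genes placed further right in mcPCs.

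Of the 10 genes, 4 were at least 2-fold lower in mcPCs than in VSMCs, namely Notch2, Notch3, Jag1 and Hes1. Over all genes of the table the share lower by that much was 13.8%. A further 3 were at least 2-fold higher in mcPCs, namely Notch4, Jag2 and Dll4, against 21.6% of all genes. Notch1, Hey1 and Heyl lay within 2-fold. The median log2 ratio was -0.59 for the 10 genes and 0.01 for all genes. In either direction 7 of the 10 genes and 35.4% of all genes were at least 2-fold apart, and 3 of the 10 genes and 17.7% of all genes at least 4-fold. The split depends on the scale. Ratios of TPM as deposited, which put the median of all genes at -1.72, gave 7 genes lower and 1 higher, where 72.3% of all genes were lower and 7.0% higher by 2-fold, or 79.3% in either direction. Counts set to equal totals, with the median at -0.55, gave 5 lower and 2 higher, where the shares of all genes were 28.8% and 15.5%. Set to equal totals without the erythrocyte genes, the counts again gave 4 lower and 3 higher, with 13.8% and 21.7% of all genes.

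**Figure D2:**
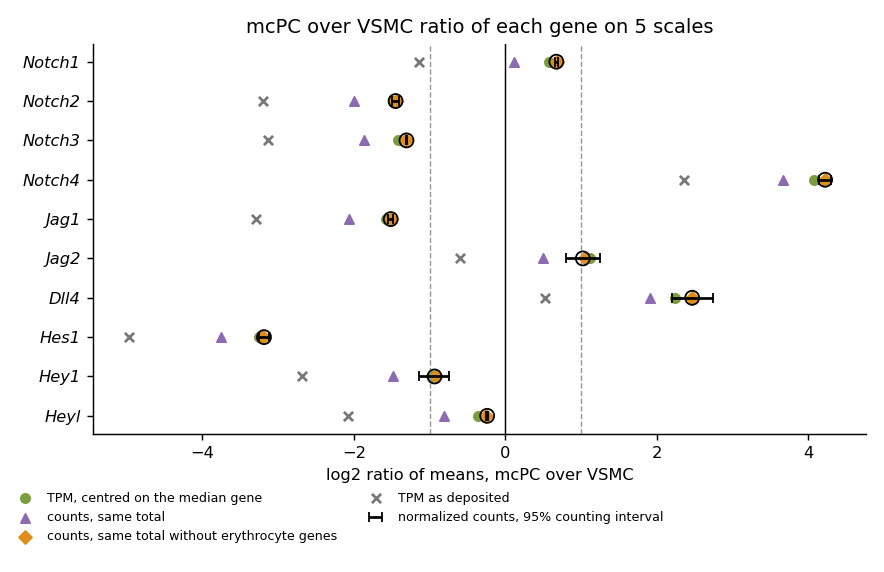
log2 ratio of means, mcPCs over VSMCs, for each gene on 5 scales (open circles: normalized counts, with the 95% counting interval as a bar). Dashed lines mark 2-fold. Hes1 lies lowest, at -3.19 on normalized counts, and Notch4 highest, at 4.22, and for Notch1 and Jag2 the TPM ratio as deposited lies on the other side of 0.

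Receptors came first in abundance. Notch3, the mural receptor, averaged 1198 TPM in VSMCs against 137 TPM in mcPCs. In mcPCs it rested on 218805 reads over the 3 samples, the most of the 10 genes there. Its mean normalized counts were 246069 in VSMCs and 99534 in mcPCs, a log2 ratio of -1.31 (counting interval -1.31 to -1.30), or 2.47-fold lower in mcPCs. Notch3 thus was lower in mcPCs while still above 98.1% of the listed genes there.

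Notch3 was then set against other mural genes of the same cell type, a measure that a common factor on all TPM means does not change. Notch3 had 0.190 times the TPM of Rgs5 in VSMCs and 0.0804 times in mcPCs. Against Cspg4, which encodes the proteoglycan NG2, the ratio was 3.09 in VSMCs and 1.44 in mcPCs. Against Pdgfrb, the PDGF receptor of mural cells, it was 1.95 in VSMCs and 0.353 in mcPCs. Notch3 was lower in mcPCs relative to each of these 3 genes, by 2.15-fold to 5.53-fold. Pdgfrb itself was 2.25-fold higher in mcPCs on normalized counts, which enters the 5.53-fold value, whereas Rgs5 and Cspg4 lay within 2-fold.

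Notch2 is a second receptor of smooth muscle. It had 27.7 TPM in VSMCs against 2.91 TPM in mcPCs, and mean normalized counts of 6192 and 2266. The log2 ratio was -1.45 (counting interval -1.49 to -1.41), close to that of Notch3, and Notch3 had 43.3 times the TPM of Notch2 in VSMCs and 47.0 times in mcPCs.

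Notch1, a receptor shared by endothelium and many progenitor cells, had 65.5 TPM in VSMCs against 29.6 TPM in mcPCs, and mean normalized counts of 17652 and 28143. On that scale it was 1.59-fold higher in mcPCs (log2 ratio 0.67, counting interval 0.66 to 0.69), short of 2-fold. With counts set to equal totals the ratio was 0.12, and the direction turns to -1.14 when TPM are taken as deposited. Relative to Notch2 a common factor on all TPM means of a cell type drops out, and Notch1 had 2.37 times the TPM of Notch2 in VSMCs and 10.2 times in mcPCs.

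Notch4 differed most among the receptors. Its authors' mean was 1.78 TPM in VSMCs against 9.55 TPM in mcPCs, from 1345 and 13163 reads over the 3 samples. Mean normalized counts were 322 and 6021, a log2 ratio of 4.22 (counting interval 4.14 to 4.30), or 18.6-fold higher in mcPCs. It was the only receptor with a higher TPM in mcPCs, and the ratio was at least 2.36 on every scale tried.

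Together the 4 receptors summed to 1292 TPM in VSMCs against 179 TPM in mcPCs. Notch3 made up 92.7% of that sum in VSMCs and 76.5% in mcPCs. Notch1 made up 5.07% and 16.6%, and Notch4 0.138% and 5.34%. Notch2 stayed near the same share, with 2.14% and 1.63%. Notch1 and Notch4 thus made up a larger part of the receptor sum in the mcPC samples, and Notch3 a smaller one. The study states that its mcPCs were slightly contaminated by endothelial cells. The part of endothelial RNA in these shares was not tested.

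**Figure D3:**
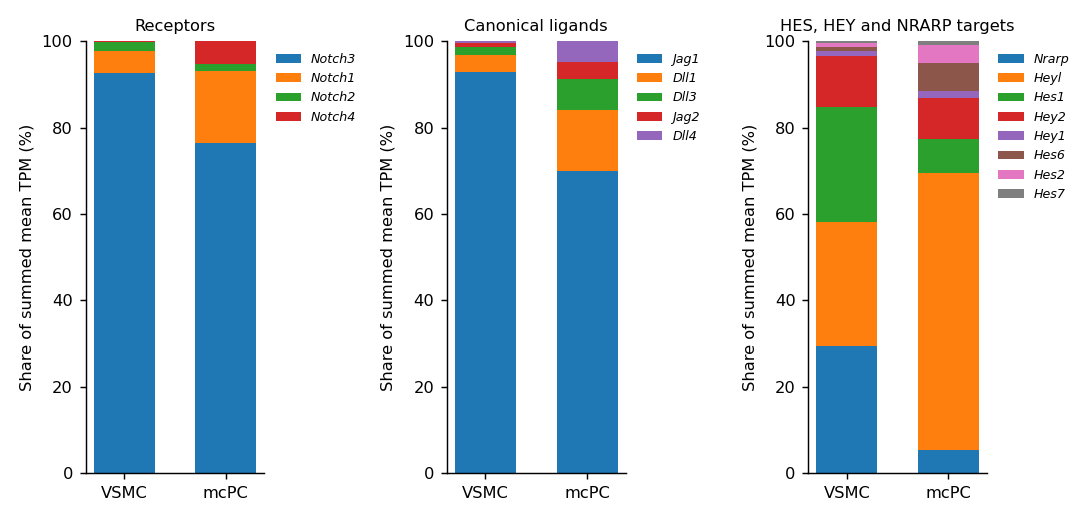
Share (%) of the summed mean TPM taken by each receptor, each canonical ligand and each HES, HEY or NRARP target with a row, in VSMCs and mcPCs. Notch3, Jag1, and the group of Nrarp, Heyl and Hes1 fill most of the VSMC bars, and Heyl alone takes 64.3% of the target bar in mcPCs.

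Among the ligands Jag1 was the abundant one. It had 64.6 TPM in VSMCs against 6.47 TPM in mcPCs, and mean normalized counts of 10029 and 3511. The log2 ratio was -1.51 (counting interval -1.55 to -1.48), or 2.86-fold lower in mcPCs. Jag1 had 0.0539 times the TPM of Notch3 in VSMCs and 0.0473 times in mcPCs.

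Jag2, the second Jagged ligand, was scarce in both cell types, with 0.587 TPM in VSMCs against 0.355 TPM in mcPCs. It rested on 307 and 334 reads over the 3 samples. Mean normalized counts of 73.3 and 149.9 gave a log2 ratio of 1.02, with a counting interval of 0.79 to 1.25 that includes values under 2-fold. On TPM as deposited the ratio was -0.60, so its direction rests on the scale.

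Dll4, the ligand of endothelial tip cells and arteries, was the least abundant of the 10 genes in VSMCs. It had 0.279 TPM there and 0.446 TPM in mcPCs, from 152 and 440 reads over the 3 samples. Mean normalized counts of 35.1 and 198.6 gave a log2 ratio of 2.47 (counting interval 2.20 to 2.74), or 5.52-fold higher in mcPCs. Jag1 still had 14.5 times the TPM of Dll4 in mcPCs, against 231 times in VSMCs.

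Of the other canonical ligands, Dll1 had 2.79 TPM in VSMCs against 1.32 TPM in mcPCs, with a log2 ratio of normalized counts of 0.67. Dll3 had 1.30 and 0.673 TPM, with a ratio of 1.03. Jag1 made up 92.9% of the summed ligand TPM in VSMCs and 69.9% in mcPCs, and Dll1 4.01% and 14.2%. Dlk1, a related protein without the domain that activates the receptors, had 3.54 TPM in VSMCs against 0.083 TPM in mcPCs, the latter from 18 reads over the 3 samples. Dlk2 had no row.

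Hes1, a repressor with a basic helix-loop-helix domain and the best known NOTCH target, had 256 TPM in VSMCs against 8.03 TPM in mcPCs. Reads over the 3 samples were 38358 and 2200. Mean normalized counts of 9139 and 1003 gave a log2 ratio of -3.19 (counting interval -3.25 to -3.13), or 9.11-fold lower in mcPCs. It lay furthest from 0 in the direction of VSMCs among the 10 genes.

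Heyl, a HEY family repressor known from mural cells, had 275 TPM in VSMCs against 65.4 TPM in mcPCs, and mean normalized counts of 35435 and 29978. The log2 ratio was -0.24 (counting interval -0.25 to -0.23), or 1.18-fold lower in mcPCs. It was -0.81 with counts set to equal totals, -0.55 relative to Pdgfrb, Rgs5 and Cspg4 and -2.07 on TPM as deposited. Heyl lay above 96.2% of the listed genes in VSMCs and above 96.4% in mcPCs. In contrast to Hes1 it kept nearly the same rank in both cell types.

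Hey1, the HEY family member of arterial endothelium, had 11.0 TPM in VSMCs against 1.63 TPM in mcPCs, from 967 and 268 reads over the 3 samples. Mean normalized counts of 233 and 121.5 gave a log2 ratio of -0.94 (counting interval -1.14 to -0.74), which includes 2-fold. It passed 2-fold on other scales, at -1.48 with counts set to equal totals, at -1.16 relative to Pdgfrb, Rgs5 and Cspg4 and at -2.69 on TPM as deposited. Its effective length of 732 bases was the shortest of the 10 genes.

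Within the cell types, Heyl had 1.08 times the TPM of Hes1 in VSMCs and 8.14 times in mcPCs. Per transcript of Notch3 there were 0.213 of Hes1 in VSMCs and 0.0587 in mcPCs, whereas for Heyl the values were 0.230 and 0.478. Relative to Notch3, then, Hes1 was 3.64-fold lower and Heyl 2.08-fold higher in mcPCs. A common factor on all TPM means of a cell type does not change these ratios, whereas the scaling of single samples within a mean can.

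Further targets were read from a list of 10 genes, 8 of which had a row, the members included. Nrarp, a feedback inhibitor of the NOTCH complex, had 282 TPM in VSMCs against 5.32 TPM in mcPCs, with a log2 ratio of -3.91 and a 15.0-fold lower level in mcPCs. Hey2, the third HEY family gene, had 113 and 9.62 TPM and a ratio of -1.72. Hes6 had 9.79 and 6.46 TPM and a ratio of 1.16, Hes2 8.21 and 4.41 TPM and a ratio of 0.89, and Hes7 3.81 and 0.779 TPM and a ratio of -0.49. Hes3 and Hes5 had no row. Nrarp, Heyl and Hes1 each took 26.7% to 29.4% of the summed target TPM in VSMCs, whereas in mcPCs the shares were 5.24%, 64.3% and 7.90%.

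Grip2, Xirp1 and Susd5 are mentioned in the study as targets of NOTCH3 signalling. They were mentioned with these samples in view, so their direction is no independent evidence. Xirp1 had 239.9 TPM in VSMCs against 0.0361 TPM in mcPCs. Grip2 had 82.3 and 0.0657 TPM, and Susd5 80.8 and 0.0328 TPM. In mcPCs they rested on 45, 71 and 12 reads over the 3 samples. Their log2 ratios of normalized counts lay between -10.92 and -8.28, beyond that of any of the 10 genes.

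The rest of the pathway was read by role. With those 3 target genes counted, 56 of 62 listed pathway genes had a row, of which 14 were at least 2-fold lower and 10 at least 2-fold higher in mcPCs, beside the background of 13.8% and 21.6%. The median log2 ratio was -0.03. Without the 10 genes and those 3, 43 pathway genes had a row, with 7 lower, 7 higher and a median of 0.18. The split of the 56 genes, those 3 included, again moved with the scale, as did the shares of all genes. TPM as deposited gave 43 lower and 3 higher, beside 72.3% and 7.0% of all genes. Counts set to equal totals gave 22 and 5, beside 28.8% and 15.5%. TPM relative to Pdgfrb, Rgs5 and Cspg4 gave 17 and 5, beside 17.0% and 19.7%.

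All 5 nuclear complex genes with a row lay within 2-fold. Rbpj, the DNA-binding partner of the receptor domain, had 35.6 TPM in VSMCs against 6.06 TPM in mcPCs, with a log2 ratio of normalized counts of -0.75, and Snw1 was the most abundant of the group, with 40.7 and 13.0 TPM. Of 7 cleavage genes 6 lay within 2-fold, and Psenen, a gamma-secretase subunit and the most abundant of the group, had 249 and 141 TPM and a ratio of 1.02. Of 5 corepressor genes, Cir1 alone passed 2-fold, with a ratio of 1.03.

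Larger ratios stood among genes that modify receptors and ligands. Lfng, a glycosyltransferase that changes which ligands a receptor answers to, had 0.462 TPM in VSMCs against 2.80 TPM in mcPCs, from 106 and 1193 reads over the 3 samples, with a log2 ratio of 4.29. The other 4 maturation genes with a row lay within 2-fold, Furin being the most abundant with 81.4 and 33.4 TPM. Of the ubiquitin ligases that prepare ligands, Neurl1b had 18.1 and 0.280 TPM and a ratio of -4.24. Mib1 had 24.3 and 3.23 TPM and a ratio of -1.13, Neurl1 0.205 and 0.243 TPM and a ratio of 1.79, and Mib2 31.9 and 9.61 TPM and a ratio of 0.06. Among 9 genes of receptor turnover, Dtx4 had 2.44 and 7.79 TPM and a ratio of 3.53. Dtx1 had 6.45 and 0.521 TPM and a ratio of -1.82, and Nedd4, the most abundant, had 518 and 72.1 TPM and a ratio of -1.02. Mfng, Aph1b and Maml3 had no row.

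**Figure D4:**
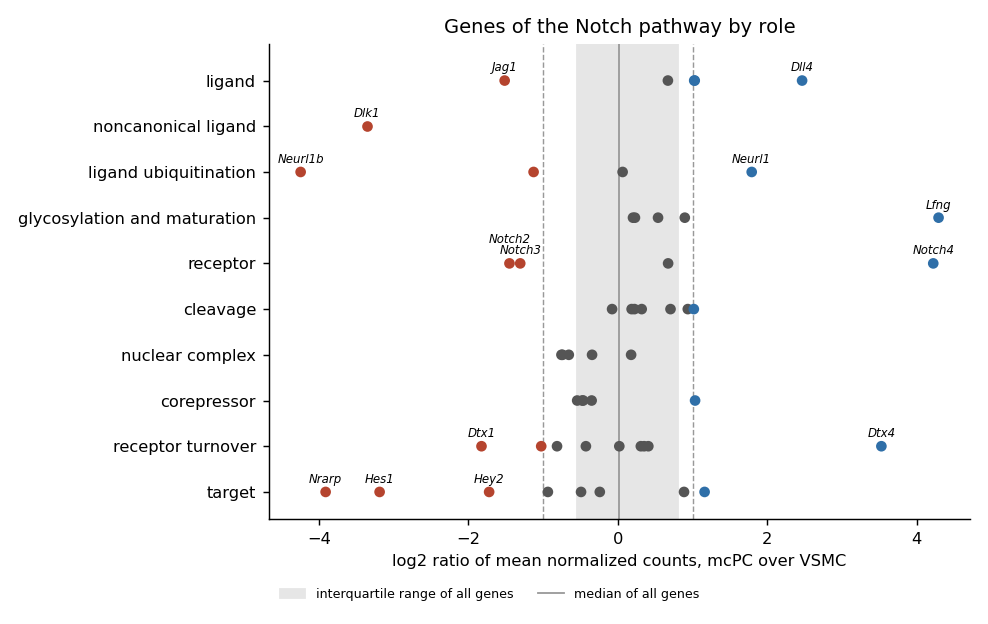
log2 ratio of mean normalized counts, mcPCs over VSMCs, for pathway genes grouped by role (1 point per gene, the outlying ones named). Dashed lines mark 2-fold, the grey band the interquartile range of all 14607 genes, and the nuclear complex points all lie within 2-fold on this scale.

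Markers of other cell types were read beside Notch4, Dll4 and Lfng. Of 24 endothelial markers, 22 had a row and 18 were at least 2-fold higher in mcPCs, against 21.6% of all genes. None was lower by that much, and Flt1, Slc2a1, Erg and Esam lay within 2-fold, at -0.78, -0.50, 0.28 and 0.43. The median log2 ratio of the list was 4.12, with single genes between -0.78 and 6.52. The summed abundance of the list was 666 TPM in VSMCs against 353 TPM in mcPCs, most of it from Esam, with 487 and 184 TPM. Of the markers at least 2-fold higher in mcPCs, Cldn5 had 0.643 TPM in VSMCs against 15.4 TPM in mcPCs and Cdh5 0.305 and 1.48 TPM. Tek had 0.140 and 1.39 TPM and Vwf 0.678 and 8.03 TPM, and Pecam1 had no row. The part of endothelial RNA in the values of Notch4, Dll4 and Lfng was not tested. The log2 ratio of Notch4, 4.22, lay near the median of the endothelial list, with 10 of the 22 markers above it and 12 below. For Lfng 9 markers lay above, and for Dll4 15. Per transcript of Cdh5 there were 5.84 of Notch4 in VSMCs and 6.48 in mcPCs, and per transcript of Tie1 3.26 and 3.47. Per transcript of Vwf the values were 2.63 and 1.19, per transcript of Cldn5 2.77 and 0.619, and per transcript of Cd34 1.27 and 0.295. For Dll4 they were 0.917 and 0.302 per transcript of Cdh5, and 0.434 and 0.0289 per transcript of Cldn5. In VSMCs these ratios rest on few reads over the 3 samples, 128 for Cdh5, 77 for Tie1 and 96 for Cldn5.

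Lists of further cell types were read in the same way, beside the 21.6% of all genes at least 2-fold higher in mcPCs. All 6 microglia and leukocyte markers with a row were at least 2-fold higher in mcPCs, with a summed 1.35 TPM in VSMCs against 155 TPM in mcPCs, mostly Lyz2. Astrocyte markers, 5 of 8 with a row, summed to 14.2 and 20.1 TPM and 4 of them were at least 2-fold higher in mcPCs. Neuron markers, 4 of 7 with a row, summed to 3.24 and 22.8 TPM, and all 4 were higher by that much. Oligodendrocyte markers, 5 of 7 with a row, summed to 6.71 and 7.54 TPM, with 4 higher. All 5 fibroblast markers had a row and summed to 438 and 111 TPM. Of these 3 were at least 2-fold higher in mcPCs, and Col3a1 and Col1a1, the most abundant, had log2 ratios of -0.63 and -0.13. Their part in the values of the Notch genes was not tested.

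**Figure D5:**
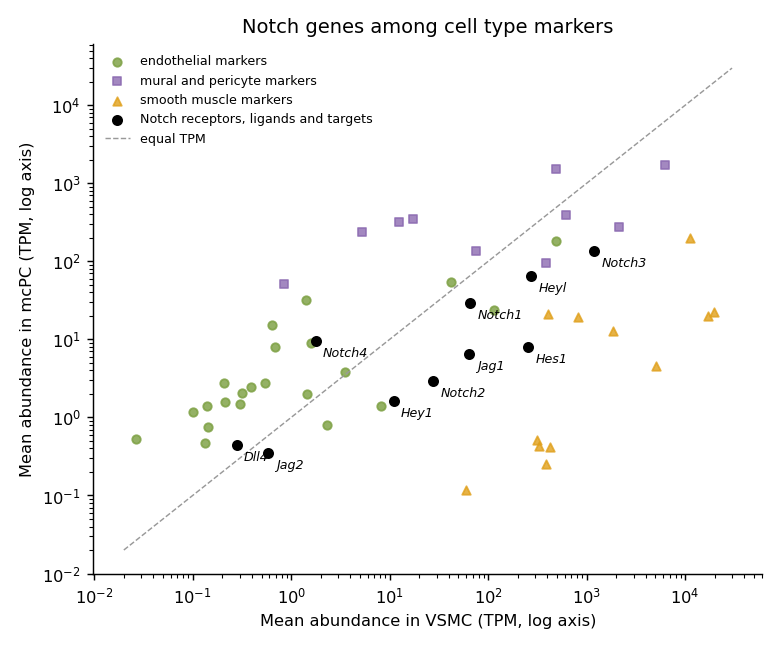
Mean abundance (TPM, log axes) in VSMCs and mcPCs of the 10 Notch genes (black) and of endothelial, mural and smooth muscle markers, 1 point per gene. Notch4 and Dll4 lie above the line of equal TPM, on the side of most endothelial markers, and the other 8 Notch genes lie below it.

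Genes with a pattern like that of Notch3 were sought by their distance in log2(TPM + 0.1) over the 2 cell types, a comparison of only 2 points per gene. The nearest 5 were Gapdh, Ptms, Epas1, Ddx5 and Tsc22d1, at distances of 0.06 to 0.30. Their abundance ran from 1064 to 1277 TPM in VSMCs and from 115 to 140.1 TPM in mcPCs. For Dll4 the nearest 5 were RT1-Db2, Aunip, Zpbp2, Btnl10 and Brca1, at distances of 0.02 to 0.12, all under 0.5 TPM in both cell types.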

How the data were processed

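The labels put 3 samples in each cell type. The authors sequenced each library in 4 runs, trimmed the reads with Eoulsan, and estimated abundance with Salmon 0.8.0 on the Ensembl Rnor_6.0 cDNA set, summed per gene with tximport. The authors deposited mean TPM, mean estimated counts and mean effective lengths per cell type. The deposited normalized counts, a signal that the authors obtained by dividing counts by DESeq2's factors, are also means. Genes without a read in every sample were left out by the authors. The table also holds the authors' log2 fold change, its standard error, p-value and adjusted p-value, which were not used here. Mean counts were taken as means per run, because 69.8% (VSMCs) and 71.5% (mcPCs) were whole multiples of a read over 12 runs, within 0.01 reads, and were multiplied by 12 to give reads over the 3 samples.

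Log2 ratios of mean normalized counts used a pseudocount of 1, and a 2-fold limit without a test. Counting intervals are exact (Clopper-Pearson, 95%). No filter on low values was applied. Other scales, pseudocounts (TPM: 0.1), filters and a 4-fold limit were tried. The genes and lists were chosen with earlier results of these data known. Named are the 10 genes, all listed ligands, receptors and targets with a row, and of every other pathway list the most abundant gene and each gene at least 2-fold apart. A gene named by this rule is not reported here. The 5 nearest genes were listed for Notch3 and Dll4. Pathway and marker lists were matched by symbol. The log2 ratios and counting intervals were tested on simulated data, drawn per sample and scaled within the test. The authors' own scaling was not redone, so the test does not cover it. A first criterion in this test, recovery of known ratios within a fixed error, was narrowly missed and was replaced, after this was seen, by each gene's expected error, the median bias and the coverage of the intervals, which were met. Tables were computed with pandas 2.3.3 and scipy 1.17.1 (numpy 2.4.6) under Python 3.11.15, and drawn with matplotlib 3.10.9.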

Additional observations from a re-analysis of the deposited data

How the results depend on the processing

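The table holds means only, so fits without each replicate could not be run and the spread between samples is unknown. No paired analysis was possible because the values are means per cell type. Of the 10 genes, 7 were at least 2-fold apart on normalized counts, and between 5 and 8 under the other scales, pseudocounts and filters tried. Raising the limit to 4-fold left 3, namely Notch4, Dll4 and Hes1. Both filters at 0.8 TPM left out Jag2 and Dll4. Of the pathway genes, Grip2, Xirp1 and Susd5 included, 24 were at least 2-fold apart, 46 on TPM as deposited and 11 at the 4-fold limit. The shares of all genes were 35.4%, 79.3% and 17.7%, in that order. Under the other settings between 20 and 27 pathway genes were. Hey1 passed 2-fold, and Jag2 did not, with counts set to equal totals, on TPM as deposited and relative to the mural genes. On TPM as deposited Heyl, at -2.07, and Notch1 passed it as well, and Dll4, at 0.52, did not. TPM as deposited, whose median over all genes is -1.72, turned the direction of Notch1, to -1.14, and of Jag2, to -0.60. The other 8 genes kept their direction on that scale, and all 10 kept it on the other scales and pseudocounts. TPM relative to Pdgfrb, Rgs5 and Cspg4 was added after the data were seen. Ratios of Dll4, Jag2 and Hey1 rest on the fewest reads.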
